A study of Laguncularia racemosa with 22 samples.

Results

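Of 54696 assembled genes counted in leaves of *Laguncularia racemosa*, 100 are described here, those whose transcripts stood highest above all other groups in the leaves labelled Q at 12 h. They were chosen on measured levels. The level of a gene in a group was the mean over the group's libraries of log2(CPM + 1), where CPM is its count scaled to a common library total. A gene qualified with at least 10 counts in all 3 libraries of Q at 12 h and a level in P at 12 h at least 1 log2 unit lower than in Q at 12 h, and 504 genes did. The score of a qualifying gene was its level in Q at 12 h minus its highest level in the other 7 groups, and the 100 highest scores made the list. Members are numbered from 1, the highest score, to 100. The score was 4.25 for member 1, 1.16 at the median and 0.724 for member 100, and 7 members scored 2 or more. These values fixed the list, so the height of Q at 12 h among these genes is a description and is not tested.

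The white mangrove is a tree of tropical tidal shores, and the RNA came from leaves of 8-week-old seedlings, all of genotype wt in the labels. The P groups are labelled freezing temperature for 0, 3 or 12 h, and P at 36 h had 12 h of it followed by 24 h of recovery. The treatment text puts the cold at 0 °C and the recovery at 30 °C by day and 28 °C by night. The Q groups, at 0, 3, 12 and 36 h, are labelled control, and the text does not say what they received. Seeds were gathered at 2 places, which the labels do not tie to the letters, so place, treatment and anything else the letter carries cannot be told apart. Time since the start and time of day cannot be told apart either, save between 12 and 36 h. Those times lie 24 h apart, at the same hour of day by their labels.

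Cold stiffens the membranes of leaf cells and slows their enzymes. In plants such as Arabidopsis, cold is known to raise CBF transcription factors within hours, and these switch on genes for protective proteins and sugars. Many leaf transcripts also follow the circadian clock and differ between morning and evening in untreated plants. The files give each gene only as an identifier of the form used by Trinity, an assembler of transcripts from reads, so none of the 100 can be given a name or a role, and the leaf label could not be checked against marker genes.

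The 22 libraries were spread as 3 to a group, but 2 in P at 3 h and 2 in P at 36 h. Their totals of 13743563 to 18462363 counts put 1 CPM at 13.7 to 18.5 counts. A filter on low counts left 21694 genes to test, and all 100 members passed it. On the 19 libraries outside Q at 12 h alone, 97 would have passed. The labels say that RNA was extracted plant by plant but not that each library was another plant, so p-values here measure the spread between libraries, which may be technical. In leaf tissue a lower level can mean fewer cells that express a gene or less RNA per cell, and these cannot be told apart.

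Although chosen for Q at 12 h, the genes were not restricted to it. The median over members of the mean level was 1.34, 0.918, 1.59 and 1.41 CPM in P at 0, 3, 12 and 36 h. In Q it was 1.58, 1.11, 10.2 and 1.1 CPM at the same times. Elsewhere the median member was thus scarce. Counts were present in all 22 libraries for 60 members, 10 had a group without any counts, and 0 were without counts in all libraries of P. Shares over all genes tested were not taken for these counts. Of the 100, 35 had all 3 libraries of Q at 12 h above all 19 others, as did 1.09% of all genes tested. Another 45 had 1 to 3 other libraries at or above the lowest library of Q at 12 h, and 20 had 4 or more. All 3 libraries of Q at 12 h lay above all 3 of P at 12 h for 72 members, against 13.0% of all genes tested. Both shares follow from the selection, and nothing is read from them.

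**Figure D1:**
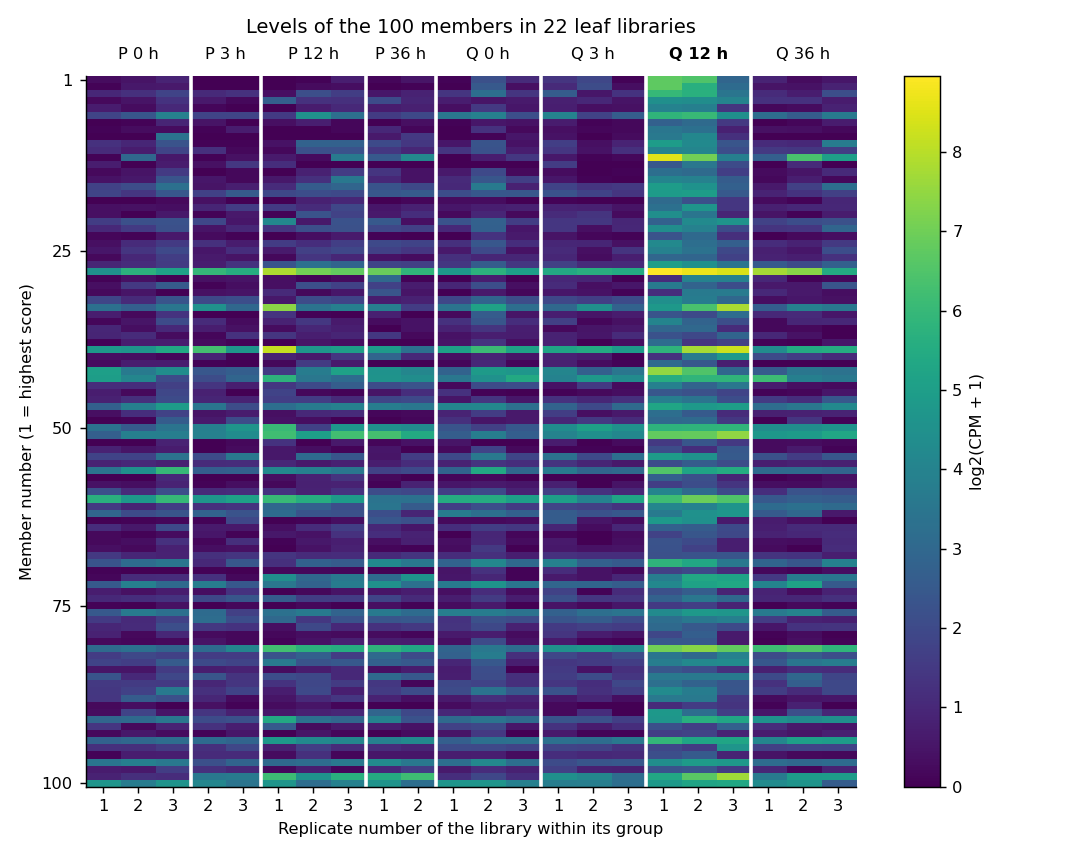
Levels of the 100 members as log2(CPM + 1), 1 row per member from the highest score at the top, 1 column per library, with the P groups left of the Q groups. The 3 columns of Q at 12 h are brighter than all others in 35 of the 100 rows, and the third of them is the darkest of the 3 in 63 rows.

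Other groups came closest to Q at 12 h in different members. The highest of the other 7 groups was P at 36 h for 21 members, P at 12 h for 20, P at 0 h for 9 and P at 3 h for 7. It was Q at 0 h for 27, Q at 3 h for 8 and Q at 36 h for 8. The members together took 0.138%, 0.0596% and 0.0679% of all counts in the 3 libraries of P at 12 h, against 0.303%, 0.284% and 0.237% in those of Q at 12 h. In the 16 libraries of the other times they took 0.0329% to 0.0775%. Replicate 1 of P at 12 h thus had a higher summed share than any other library outside Q at 12 h. That sum leaned on abundant members: members 39 and 28 gave 286.8 and 229.3 of its 1377 CPM. The median member had 0.800 CPM there, against 1.40 and 1.59 CPM in replicates 2 and 3, and 14 members had no counts there.

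The highest scores belonged to a pair of genes, both highest in replicate 1 of Q at 12 h. In P, member 1, TRINITY_DN60272_c0_g1, had 0.236, 0.383 and 0.867 CPM at 0 h, 0 and 0 CPM at 3 h, 0, 0.0682 and 0.701 CPM at 12 h, and 0.118 and 0.412 CPM at 36 h. In Q it had 0.0582, 3.54 and 1.16 CPM at 0 h, 1.58, 2.72 and 0.0671 CPM at 3 h, 105.6, 88.0 and 6.57 CPM at 12 h, and 0.867, 0.234 and 0.469 CPM at 36 h. All 3 libraries of Q at 12 h exceeded all others, but replicate 3 lay 16.1-fold below replicate 1.

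Member 2, TRINITY_DN9365_c0_g1, was just as uneven. It had 0.0591, 0.492 and 0.542 CPM in P at 0 h, 0 and 0 CPM at 3 h, 0, 0.205 and 0.255 CPM at 12 h, and 0 and 0.0589 CPM at 36 h. Its levels in Q were 0, 4.64 and 0.290 CPM at 0 h, 1.07, 3.19 and 0.269 CPM at 3 h, 105.7, 49.3 and 7.73 CPM at 12 h, and 0.400, 0.350 and 0.804 CPM at 36 h. Its highest library outside Q at 12 h was replicate 2 of Q at 0 h, as for member 1. Both genes were without a count in P at 3 h, where a floor of 3 counts over the group puts them at least 15.4-fold and at least 15.9-fold below Q at 3 h. Neither difference was called, with edgeR unadjusted p of 0.0416 and 0.0404 and adjusted p of 0.863 for both.

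Member 4 was even over the replicates of Q at 12 h, though not over those of P. In P it had 0.177, 0.383 and 1.46 CPM at 0 h, 0.513 and 0.133 CPM at 3 h, 5.6, 1.43 and 1.34 CPM at 12 h, and 3.12 and 0.883 CPM at 36 h. In Q it had 0.640, 0.406 and 0.581 CPM at 0 h, 0.735, 1.01 and 0.403 CPM at 3 h, 20.8, 20.1 and 15.2 CPM at 12 h, and 1.40, 1.40 and 0.603 CPM at 36 h. No other library reached the lowest of Q at 12 h, where the highest replicate was 1.37-fold above the lowest. In P member 4 was called higher at 12 h than at 0 h in edgeR's quasi-likelihood test. The log2 change was 2.13 (SE 0.67, edgeR adjusted p = 0.0199). The times overlap, as replicates 2 and 3 of P at 12 h lay below replicate 3 of P at 0 h. Alternatives were not followed for this call.

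The other members among the first 10 were of low or middling abundance. In Q at 12 h their lowest library value was 0.750 CPM, in member 8, and their highest was 65.0 CPM, in member 6. In all 7 of them, as in members 1, 2 and 4, replicate 3 was the lowest of the group. Member 9 stood out among them: it had 0 counts in all 3 libraries of P at 12 h and of Q at 36 h, and 179 counts in replicate 3 of P at 0 h, where the other 2 replicates had 0. In Q at 12 h it had 181, 259 and 24 counts.

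**Figure D2:**
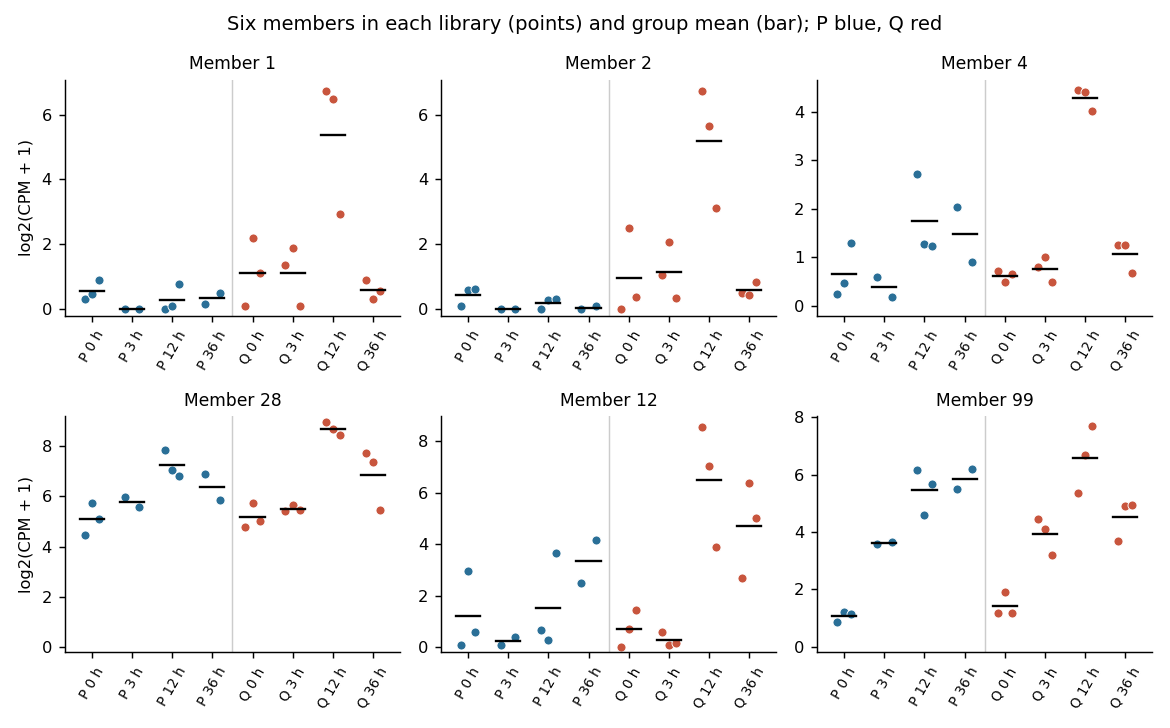
Levels of members 1, 2, 4, 28, 12 and 99 in each library as log2(CPM + 1), with points for libraries, bars for group means, P in blue left of Q in red, and a separate vertical scale in each panel. Members 1 and 2 drop to 6.57 and 7.73 CPM in replicate 3 of Q at 12 h, member 4 is even there, and members 28 and 99 are already high in P at 12 h.

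The members differed widely in abundance. At 12 h in Q, 48 members averaged under 10 CPM, 45 lay between 10 and 100 CPM and 7 reached 100 CPM or more. The 3 most abundant, members 28, 39 and 12, made 28.4% of the summed CPM of the list. Member 28 had 157 ± 63.6 CPM in P at 12 h and 418 ± 72.8 CPM in Q at 12 h (SD, n = 3 each), and between 35.9 ± 16.0 and 140 ± 87.7 CPM as group means in the rest. It rose in P between 0 and 12 h by 2.24 log2 units (SE 0.50, edgeR adjusted p = 0.00239) and in Q between 0 and 36 h by 1.95 log2 units (SE 0.49, edgeR adjusted p = 0.0066). The second of these calls was lost when only the libraries compared were fitted (edgeR adjusted p = 0.0755). The times overlap there, as replicate 3 of Q at 36 h had 43.0 CPM and replicate 2 of Q at 0 h had 52.8 CPM.

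Members 39 and 12 were abundant but erratic. Member 39 had 286.8, 24.8 and 31.2 CPM in P at 12 h, so that replicate 1 was level with the highest replicate of Q at 12 h, where the libraries had 55.9, 214.9 and 297 CPM. Member 12 had 0.582, 0.205 and 11.7 CPM in P at 12 h and 372.4, 133 and 13.7 CPM in Q at 12 h. At 36 h member 12 had 4.65 and 17.1 CPM in P and 5.53, 82.4 and 31.8 CPM in Q. P and Q overlap at 36 h but not at 12 h, and the highest and lowest replicates of Q at 12 h were 27.1-fold apart.

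Uneven replicates were common throughout the list. Over the 100 members the median fold between the highest and the lowest library of Q at 12 h was 3.73, against 1.40 over all genes tested. It reached 5 or more in 39 members and was under 2 in 25. The rule chose the members on levels in these same libraries, so nothing is read from the distance to all genes tested. Replicate 3 was the lowest library in 63 members, the highest in 23 and between the others in 14. The sum over the 63 members was 2188, 1599 and 684 CPM in replicates 1, 2 and 3 of Q at 12 h, whereas the sum over the 23 was 478, 836 and 1318 CPM. Members thus differed in which replicates of Q at 12 h were high. The libraries of Q at 12 h had 15944696, 15447081 and 17340614 counts in the order of their replicates, and the part of depth in these profiles was not tested.

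In some of the other groups, too, many members were high in the same replicate, a property the rule did not use. Within P at 0 h, replicate 3 was the highest library for 64 members, against 33.0% of all genes tested. Within Q at 0 h, replicate 2 was the highest for 78 members, against 35.0% of all genes tested, and within Q at 3 h, replicate 1 was the highest for 61 members, against 25.7%. The median deviation of the members from their group mean was 0.331, 0.534 and 0.198 on the log2(CPM + 1) scale in these 3 libraries, and 0.000, 0.0237 and -0.0170 over all genes tested. Members share each library, so the counts describe those libraries and carry no test. Replicate 3 of P at 0 h reached the lowest library of Q at 12 h in 23 members, and replicate 2 of Q at 0 h did so in 37, more than any other.

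**Figure D3:**
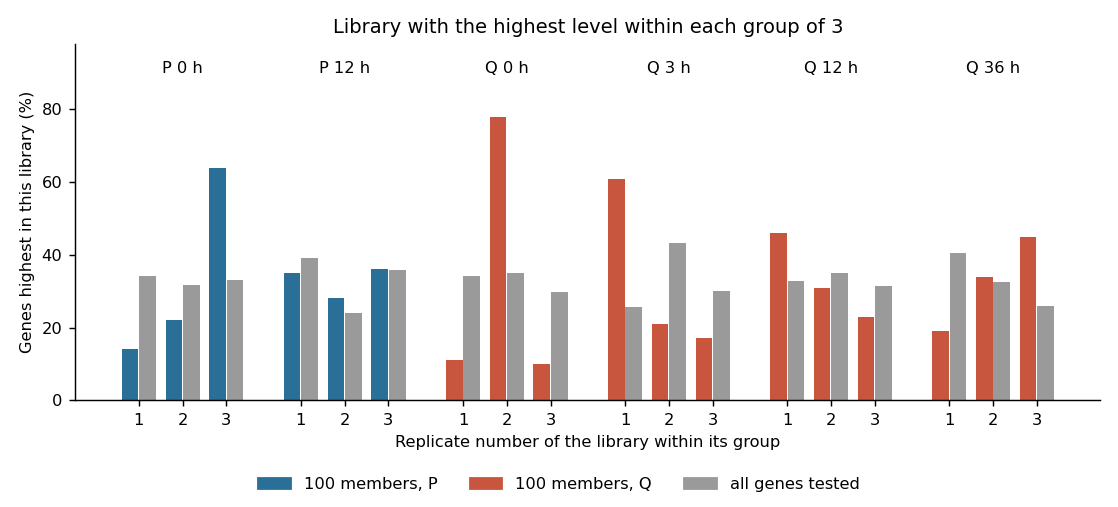
Share of genes whose highest library within a group is the replicate shown, for the 100 members (blue in P, red in Q) and for all genes tested (grey), in the 6 groups of 3 libraries, with bars from 0. At 0 h, replicate 3 of P (64%) and replicate 2 of Q (78%), and at 3 h, replicate 1 of Q (61%), hold more of the members' maxima than of those of all genes tested, while the members' shares at P 12 h lie close to the grey bars.

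The 63 and the 23 members, split on the replicates of Q at 12 h, also differed in other groups. In P at 12 h, replicate 1 lay below its group mean for the 63, with a median deviation of -0.376, and above it for the 23, with 0.591. In P at 36 h, replicate 1 deviated by 0.000 at the median of the 63 and by 0.438 at that of the 23. Both sets deviated upwards in replicate 2 of Q at 0 h, by 0.562 and 0.488. The summed CPM of the 23 members was 825, 147 and 258 in the replicates of P at 12 h, of which member 39 alone gave 286.8, 24.8 and 31.2 CPM. The sets were formed after the values were seen, and the figures are a description.

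**Figure D4:**
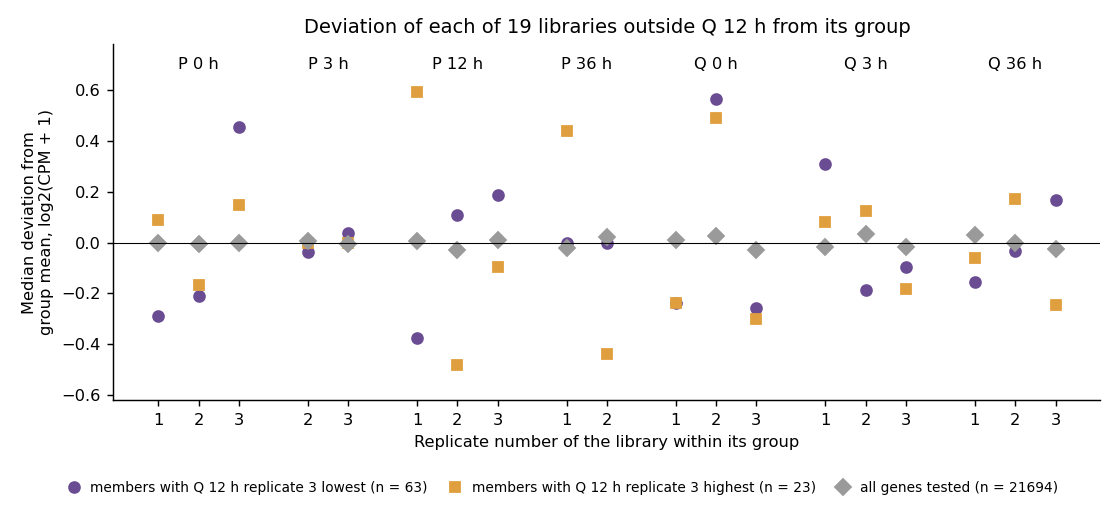
Median deviation of each of the 19 libraries outside Q at 12 h from its group mean, in log2(CPM + 1), for the 63 members lowest in replicate 3 of Q at 12 h (circles), the 23 highest there (squares) and all genes tested (diamonds). The sets part in replicate 1 of P at 12 h (-0.376 and 0.591) and lie together in replicate 2 of Q at 0 h (0.562 and 0.488), while all genes tested stay near 0.

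The selection itself set the direction of 4 comparisons, which are given as counts alone. P at 12 h was called lower than Q at 12 h in 28 members, with 1.31% of all genes tested called lower and 2.26% higher. Q at 12 h was called higher than Q at 0 h in 69 members, with 17.9% of all genes tested called higher and 19.9% lower, and higher than Q at 3 h in 80 members, with 16.3% called higher and 18.5% lower. Q at 36 h was called lower than Q at 12 h in 69 members, with 11.4% called lower and 12.5% higher. In the opposite directions 0 members were called by edgeR or by DESeq2 and 0 had an unadjusted p under 0.05 in edgeR. The count between P and Q at 12 h rested on single libraries: it was 2 and 0 when P at 12 h lost its replicate 2 or 3, and 6 and 1 when Q at 12 h lost its replicate 1 or 2. It was 0 when only the libraries compared were fitted and 48 with DESeq2. The count of 69 between 36 and 12 h in Q was 40 without replicate 1 of Q at 36 h.

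The comparisons without Q at 12 h describe what these genes did elsewhere. The rule was not blind to them, since it held every other group, P at 12 h among them, below Q at 12 h. The part of this limit in the counts of these comparisons, and in their distance from all genes tested, was not tested. The comparisons also share libraries, those of 0, 12 and 36 h above all, so their counts are not independent of each other. Between 0 and 12 h in P, 13 members rose, or 13 of 100 against 15.5% of all genes tested. None fell in edgeR's quasi-likelihood test, where 3 had an unadjusted p under 0.05, while 16.6% of all genes tested fell. DESeq2 called 18 higher and 2 lower, and its shares over all genes tested are not given here. In P at 0 h the level of 47 members was under 1 on the log2(CPM + 1) scale, and the part of low levels in this count was not tested. The median change in level between 0 and 12 h was 0.07 for the members and -0.10 for all genes tested, and 59 members moved up and 41 down.

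Member 99 made the largest called rise at 3 h and at 12 h in P. It had 0.827, 1.31 and 1.19 CPM at 0 h, 10.9 and 11.7 CPM at 3 h, 70.1, 22.9 and 50.2 CPM at 12 h, and 44.5 and 71.6 CPM at 36 h in P. In Q it had 1.28, 2.79 and 1.28 CPM at 0 h, 20.9, 16.2 and 8.26 CPM at 3 h, 39.9, 101.4 and 205.5 CPM at 12 h, and 12.0, 29.0 and 29.8 CPM at 36 h. No library of a later time fell into the range of 0 h in either letter, and P and Q overlap at 12 h. Its log2 change against 0 h in P was 3.39 (SE 0.72, edgeR adjusted p = 0.011) at 3 h, 5.52 (SE 0.70, edgeR adjusted p = 1.51e-05) at 12 h and 5.61 (SE 0.72, edgeR adjusted p = 1.96e-05) at 36 h. In Q it was 3.20 (SE 0.64, edgeR adjusted p = 0.00446) at 3 h and 3.77 (SE 0.65, edgeR adjusted p = 0.000337) at 36 h. The call at 3 h in P was lost without either library of that group, at adjusted p of 0.057 and 0.0771.

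Member 81 rose alongside. It averaged 7.53 ± 1.29 CPM in P at 0 h, 58.0 ± 14.5 CPM in P at 12 h and 47.8 CPM over the 2 libraries of P at 36 h, and 8.46 ± 2.45, 136 ± 27.3 and 72.2 ± 15.2 CPM in Q at these times (SD, n = 3). The log2 change was 3.06 (SE 0.28, edgeR adjusted p = 1.61e-07) between 0 and 12 h in P and 3.13 (SE 0.28, edgeR adjusted p = 1.56e-07) between 0 and 36 h in Q. Both calls remained under all 29 alternatives tried. Members 28, 50, 51, 61, 71, 94 and 99 were, with member 81, called higher both at 12 h in P and at 36 h in Q against 0 h. These 8 are 8 of the 13 members that rose at 12 h in P and 8 of the 10 that rose at 36 h in Q, and the 2 comparisons have no library in common. Over all genes tested, 8.04% were called higher in both, or 51.8% of those that rose at 12 h in P and 56.9% of those that rose at 36 h in Q, so sharing of this kind is common and nothing particular to the members is read from it.

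**Figure D5:**
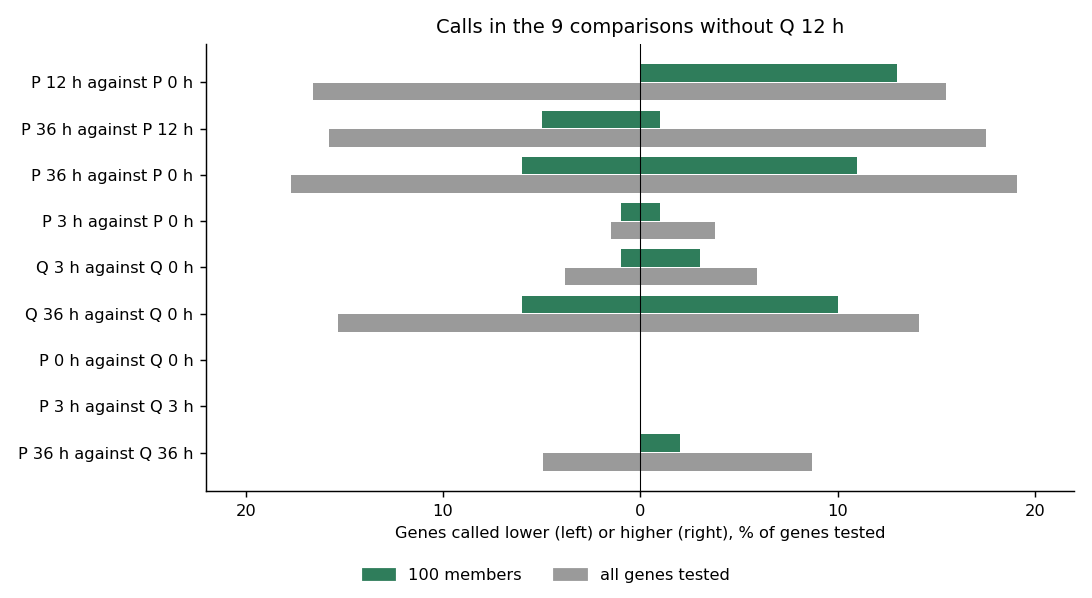
Share of the 100 members (green) and of all genes tested (grey) called lower (left) or higher (right) in the 9 comparisons without Q at 12 h, each named with the group on top of the difference first. The members' shares do not exceed the grey bars in any of the 9: for P at 12 h against 0 h, 13 members rose and 0 fell, against 15.5% and 16.6% of all genes tested. The rule held the groups compared here below Q at 12 h in every member, and its part in these shares was not tested.

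By 36 h in P, 11 members stood higher and 6 lower than at 0 h, against 19.1% and 17.7% of all genes tested. Relative to P at 12 h, 1 member was higher and 5 were lower, against 17.5% and 15.8%. In Q, 10 members were higher and 6 lower at 36 h than at 0 h, against 14.1% and 15.3%. Of those called against 0 h at 36 h, members 51, 61, 71, 81, 94 and 99 rose in both letters, 6 of the 11 in P and 6 of the 10 in Q, and members 32, 41 and 60 fell in both, 3 of the 6 in each. Among all genes tested 9.56% rose in both letters, 50.1% of those that rose in P and 67.7% of those that rose in Q, and 10.6% fell in both, 59.5% and 69.2% of those that fell. P at 36 h has 2 libraries, and its counts depend on them: the 17 calls against 0 h were 9 and 10 without replicates 1 and 2, and the 6 against 12 h were 3 without either. DESeq2 called 3 higher and 11 lower between 36 and 12 h.

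Member 60 fell at 36 h in both letters. In P it had 50.4, 26.3 and 62.9 CPM at 0 h, 24.8 and 34.0 CPM at 3 h, 65.1, 46.6 and 28.2 CPM at 12 h, and 9.53 and 9.12 CPM at 36 h. In Q it had 45.3, 45.4 and 31.9 CPM at 0 h, 31.6, 14.5 and 36.1 CPM at 3 h, 71.7, 122 and 88.2 CPM at 12 h, and 4.53, 5.49 and 5.03 CPM at 36 h. All 5 libraries of 36 h lay below all 17 others. The log2 change against 0 h was -2.39 (SE 0.44, edgeR adjusted p = 0.000438) in P and -2.98 (SE 0.39, edgeR adjusted p = 2.11e-05) in Q.

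Member 41 had the lowest fitted log2 change at 36 h, but it is a gene of few counts and without any at that time, so its falls are given as bounds. These bounds take its counts at the earlier times as observed, without their spread. In P it had 4, 12 and 12 counts at 0 h, 2, 28 and 9 at 12 h, and 0 and 0 at 36 h. In Q it had 0, 0 and 0 counts at 36 h, against 2, 17 and 2 at 0 h. With a floor of 3 counts over the group it was at least 10.0-fold lower at 36 h than at 12 h in P (edgeR adjusted p = 0.0218), at least 5.91-fold lower than at 0 h in P (edgeR adjusted p = 0.0461) and at least 6.38-fold lower than at 0 h in Q (edgeR adjusted p = 0.0461). The first call was lost without replicate 2 of P at 12 h or either library of P at 36 h, at adjusted p up to 0.122. The calls against 0 h were lost under 10 of 28 alternatives in P and 13 of 27 in Q, at adjusted p up to 0.182 and 0.211.

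Member 63 made the largest rise at 36 h in P. In P it had 0, 0.0547 and 0.108 CPM at 0 h, 0, 0.0682 and 0.255 CPM at 12 h, and 4.41 and 3.53 CPM at 36 h. In Q it had 0.175, 0.174 and 0.232 CPM at 0 h, 27.5, 21.6 and 0.577 CPM at 12 h, and 0.600, 0.292 and 0 CPM at 36 h. At 3 h it had 0.0642 and 2.74 CPM in P and 5.03, 0.414 and 0.201 CPM in Q. Both libraries of P at 36 h lay above all of P at 0, 3 and 12 h, but replicate 1 of Q at 3 h lay above both. The log2 change in P was 5.90 (SE 1.80, edgeR adjusted p = 0.0167) against 0 h and 4.86 (SE 1.70, edgeR adjusted p = 0.0366) against 12 h. The first call was lost without replicate 1 of P at 36 h and without replicate 1 or 2 of P at 0 h, at adjusted p of 0.0514 to 0.0573, and the second without any 1 library of either group, at adjusted p of 0.0585 to 0.105. With no filter on low counts both were lost, at adjusted p of 0.0593 and 0.119. In Q the largest rise at 36 h was that of member 12, with a log2 change of 5.68 (SE 1.74, edgeR adjusted p = 0.0229), lost without replicate 2 at 36 h or without 1 or 2 at 0 h, at adjusted p of 0.0699 to 0.0793.

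At 3 h the count of changed members depended on the tool. In edgeR's test, in P, 1 rose and 1 fell, against 3.77% and 1.49% of all genes tested, and in Q, 3 rose and 1 fell, against 5.9% and 3.82%. DESeq2 called 4 higher and 7 lower in P, and 4 higher and 4 lower in Q. Its shares over all genes tested are not given here. In edgeR's test member 99 rose and member 97 fell in both letters, and members 50 and 81 rose in Q. The call of member 50 was lost without replicate 1 or 2 at 0 h or 2 at 3 h, at adjusted p of 0.0566 to 0.0668. Member 97 had 3.59 and 6.34 CPM in P at 3 h, against 10.2, 13.4 and 11.1 CPM in P at 0 h. It had 3.16, 4.26 and 4.50 CPM in Q at 3 h, against 8.32, 17.2 and 8.31 CPM in Q at 0 h, so that the times did not overlap in either letter. The log2 change was -1.16 (SE 0.34, edgeR adjusted p = 0.04999) in P and -1.38 (SE 0.30, edgeR adjusted p = 0.0047) in Q. The call in P was lost under 16 of 29 alternatives, among them the fits without any 1 library of P at 0 or 3 h. The 2 calls in P were 0 without replicate 2 or 3 of P at 3 h.

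Outside 12 h few members were called between the letters. Between P and Q at 0 h, 0 members were called in either direction by edgeR and by DESeq2, with 1 higher and 3 lower at an unadjusted p under 0.05 in edgeR, and 0.0% of all genes tested were called higher and 0.0% lower. At 3 h edgeR called 0 members, with 0 higher and 5 lower at an unadjusted p under 0.05, DESeq2 called 1 lower, and 0.00922% and 0.00461% of all genes tested were called higher and lower. Over the members the median difference in level, P minus Q, was -0.13 at 0 h, -0.07 at 3 h and 0.01 at 36 h. Over all genes tested it was -0.06, -0.01 and 0.00.

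At 36 h 2 members were higher in P than in Q, against 8.72% of all genes tested. None was lower in edgeR's test, where 6 had an unadjusted p under 0.05, while 4.94% of all genes tested were lower. DESeq2 called 4 higher and 1 lower. Member 44 had 3.23 and 3.94 CPM in P at 36 h, against 0.600, 0.292 and 0.201 CPM in Q, a log2 difference of 3.25 (SE 0.92, edgeR adjusted p = 0.0243). Member 77 had 4.18 and 4.59 CPM in P, against 2.00, 0.759 and 0.670 CPM in Q, a log2 difference of 1.91 (SE 0.54, edgeR adjusted p = 0.0239). The letters did not overlap in either gene. In Q member 44 was called lower at 36 h than at 0 h, by 2.57 on the log2 scale (SE 0.87, edgeR adjusted p = 0.0331). It had 0.175, 3.13 and 3.37 CPM in Q at 0 h, so replicate 1 of 0 h lay below all libraries of 36 h. Alternatives were not followed for this call. Both differences between letters lost their call without any of 4 libraries, the 2 of P at 36 h and replicates 2 and 3 of Q at 36 h, with adjusted p of 0.058 to 0.123.

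The change over time was also set against the letter directly. For the change between 0 and 3 h, 0 members differed between P and Q in edgeR, with 0 higher and 1 lower at an unadjusted p under 0.05 and 1 lower in DESeq2, and 0.00461% of all genes tested were called higher and 0.0% lower. For the change between 0 and 36 h, 0 members differed in edgeR, with 6 higher and 2 lower at an unadjusted p under 0.05 and 4 higher in DESeq2, against 2.98% of all genes tested higher and 1.53% lower. Member 77 came nearest of those named here, with a difference of 2.51 log2 units (SE 0.73, edgeR adjusted p = 0.0577), and member 44 had 3.68 (SE 1.19, edgeR adjusted p = 0.0924). Member 99, which rose in both letters, had a difference of 1.85 log2 units (SE 0.96, edgeR adjusted p = 0.334).

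The edge of the list was not sharp. Members 99 and 100 scored 0.730 and 0.724, and the next 2 genes, outside the list, scored 0.720 and 0.705. Member 99 had a level of 6.57 in Q at 12 h and 5.84 in P at 36 h, its highest other group. Member 100 had 5.14 in Q at 12 h and 4.42 in Q at 0 h. The list itself leaned on single libraries: when replicate 1, 2 or 3 of Q at 12 h was left out, 66, 79 and 65 of the 100 stayed in it. A pseudocount of 5 CPM in place of 1 CPM, which favours abundant genes, kept 48.

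The identifiers group genes into clusters of transcripts assembled together, a property the rule did not use. Of the 100 members, 31 share a cluster with at least 1 other identifier, as do 29.5% of all identifiers, and counts of such genes may be split between near-identical transcripts. In 4 clusters both genes of a pair were members: 10 and 66, 23 and 70, 75 and 79, and 84 and 93. Of the 36 other identifiers in the members' clusters, 19 had at least 10 counts in all 3 libraries of Q at 12 h. Among them, 5 were highest in Q at 12 h, while 13.9% of all identifiers with as many counts were. Another count, of those at least 1 log2 unit lower in P at 12 h than in Q at 12 h, also gave 5 of 19, against 3.18%. The median difference of the 19, P at 12 h minus Q at 12 h, was -0.22 log2 units. These counts and this median use the levels on which the rule chose the members of the same clusters, so nothing is read from them.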

How the data were processed

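The authors deposited raw counts of 22 leaf mRNA libraries, 1 whole number per gene and library. The submitters' processing notes name FastQC, HISAT2 and featureCounts without versions. The sequences that served as the alignment target are not given in the sources used here. Columns were matched to samples by the titles, and 0 value columns were left over.

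The test used edgeR 4.0.16 (R 4.3.3): filterByExpr with a minimum count of 10 over the 8 groups, TMM scaling, and the robust quasi-likelihood test of contrasts of group means fitted over all libraries together, so that groups of 2 libraries rest on the pooled spread (common biological coefficient of variation 0.264). Calls were made at an adjusted p under 0.05 (Benjamini-Hochberg) over all 21694 genes tested. Shares of all genes tested are from edgeR alone. Counts of members called by DESeq2 have no share from that tool beside them and cannot be set against edgeR's. CPM for levels and for the rule used library totals without TMM. Folds against a group without counts are lower bounds against 3 counts over that group and cover counting error in it only. The summed count of the other group is taken as observed, so its counting error and the spread between its libraries are not covered. Libraries of a group differed by a chi-square per gene of 16.1 to 51.6, far above the value near 1 of sampling noise, and each was counted as a replicate. The fit was tested on simulated counts, with noise drawn separately for each gene. These held no shifts shared by genes within a library, so calls under such shifts were not checked.

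The members and lists were chosen with earlier results of these data known. Named are members 1 to 10, the 3 most abundant in Q at 12 h, the largest called change in each direction of each contrast without Q at 12 h, and those at the edge of the list. Identifiers are printed for the first 2; members 9, 39, 50, 60, 77 and 81 are further described, and members called in both letters listed, after their values were seen. Lists of cold, clock and other genes were not used, since the files pair no identifier with a name. Differences between letters in the change over time were added after the data were seen. The alternatives were RLE scaling, library totals, 2 other filters, DESeq2 1.42.0, a fit of the compared libraries only, a replicate block, a minimum change of 2-fold and leaving out each library.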

Additional observations from a re-analysis of the deposited data

How the results depend on the processing

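Among the 9 comparisons without Q at 12 h, the count of members called kept within 1.5 times its value under RLE scaling, library totals, a filter asking 10 counts of 11 libraries and a minimum change of 2-fold. With DESeq2 the counts were 20 in place of 13 for P at 12 h against 0 h, 14 in place of 6 for P at 36 h against 12 h, 11 in place of 2 for P at 3 h against 0 h, 8 in place of 4 for Q at 3 h against 0 h, 1 in place of 0 for P against Q at 3 h, 5 in place of 2 for P against Q at 36 h and 48 in place of 28 at 12 h. DESeq2 also called 1 and 4 members, in place of 0, for the difference between letters in the change to 3 h and to 36 h. With no filter, 4 members were called for P at 3 h against 0 h and 1 for the change to 36 h between letters. With only the compared libraries fitted, and so fewer samples behind the spread, the counts were 1 for P at 3 h against 0 h, 8 for Q at 3 h against 0 h, 5 for P against Q at 36 h and 0 for P against Q at 12 h. The cause of the other shifts was not tested.

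Same-numbered libraries were not alike, with correlations of their deviations from -0.182 to 0.128, so the replicate number does not pair them. With the replicate block, 2 members were called for P at 36 h against 12 h and 16 for P against Q at 12 h, and the rise of member 63 between 12 and 36 h in P was no longer called (edgeR adjusted p = 0.0692).

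Leaving out each library in turn gave 10 to 18 members for P at 12 h against 0 h, 3 to 7 for P at 36 h against 12 h, 9 to 18 for P at 36 h against 0 h, 0 to 3 for P at 3 h against 0 h, 3 to 6 for Q at 3 h against 0 h and 12 to 18 for Q at 36 h against 0 h. It gave 0 for P against Q at 0 h and at 3 h, 0 to 3 at 36 h and 0 to 32 at 12 h, 46 to 77 for Q at 12 h against 0 h, 55 to 82 for Q at 12 h against 3 h, 40 to 73 for Q at 36 h against 12 h, and 0 and 0 to 2 for the change to 3 h and to 36 h between letters. The count for P at 3 h against 0 h was 1 without any single library of P at 0 h or Q at 3 h, and also when Q lost replicate 1 at 12 h, or 2 or 3 at 36 h. For the change to 36 h between letters it was 1 when P lost replicate 1 or 2 at 12 h or 1 at 36 h, or Q lost 1 at 36 h, and 2 when Q lost 1 or 2 at 0 h. A lone remaining library in P at 3 or 36 h was assumed to vary like the other groups.

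The rule kept 65 to 100 of the 100 members without single libraries, 48 with a pseudocount of 5 CPM, 87 with 0.5 CPM, 98 with TMM-scaled totals, 85 with no minimum count, 70 with a minimum of 30, 69 with group medians and 88 with counts summed over clusters. Of the called changes of named members that were followed, 12 kept their call under every alternative run, 12 lost it under at least 1, and 0 reversed. Scaling by library totals moved the median log2 change of all genes tested to 0.259 for P at 36 h against 12 h, where TMM gave 0.0586, and to -0.168 for P at 12 h against 0 h, where TMM gave -0.0441. At 1 CPM a gene rests on 13.7 to 18.5 counts, and 16 members had a library of Q at 12 h under 20 counts.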
